A study of Mus musculus with 4 samples.

Results

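Choroid plexus epithelial cells were picked out of a droplet single-cell RNA-seq experiment on whole mouse brain, and their response to inhibitors of transcription and translation during tissue dissociation was examined. A cell barcode was taken as a member when it had at least 400 detected genes and at most 20% mitochondrial RNA, when at least 3 of 8 genes (Kl, Clic6, Kcnj13, Sostdc1, Folr1, Prlr, 2900040C04Rik and Cox8b) were detected, when at most 1 of 6 genes of endothelial cells, oligodendrocytes, astrocytes and microglia was detected (Cldn5, Flt1, Mog, Aqp4, Tmem119, P2ry12), and when at most 2 of 4 ependymal genes were detected (Ccdc153, Tmem212, Dynlrb2, Mia). This rule gave 478 members of 10067 barcodes that passed the filter and of 12487 that were deposited. Libraries came from 4 male C57BL/6J mice at postnatal day 90, with 1 library per animal. All brains were digested enzymatically and belonged to what the labels call Batch 1, and the meninges were removed as far as possible. In 2 animals no inhibitors were used, and in the other 2 actinomycin D and triptolide, which block transcription, were present from perfusion onwards, joined by anisomycin, which blocks translation, during dissection and digestion. Neither group was sorted, so each library held all cell types that survived dissociation. All animals, with or without inhibitors, were dissociated. The libraries held 5134359 to 7529804 UMIs (unique molecular identifiers, tags that count single RNA molecules), and members held 593308, 703178, 362284 and 170334 of them. Library pairs shared 9 to 13 cell barcodes, and no barcode was a member in more than 1 library.

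The choroid plexus is a fold of vascular tissue that hangs into each brain ventricle and is covered by a single layer of epithelial cells. These cells secrete the cerebrospinal fluid by moving sodium, chloride, bicarbonate and water across the layer, and they form the barrier between blood and cerebrospinal fluid. They are also strongly secretory: transthyretin, a carrier of thyroxine and retinol-binding protein, is their best known product and reaches the fluid through the endoplasmic reticulum (ER) and Golgi.

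The members carried the RNA of the cell type by which they are labelled, including transcripts that the rule did not use. Ttr, which encodes transthyretin and took no part in the choice, had a median of 38.1% and 25.97% of a member's UMIs in the 2 libraries without inhibitors, and of 18.4% and 17.4% in those with inhibitors. In other barcodes the median Ttr share lay between 0.164% and 0.311%, although 95.7% to 99.3% of those barcodes held a Ttr UMI. A Ttr share of 5% or more was found in 33, 28, 27 and 30 other barcodes, so the shares overlapped. The range among members was wide, from 0.592% to 65.2% in the first library without inhibitors and from 1.56% to 46.9% in the second library with inhibitors. A Ttr share under 5% was found in 9, 19, 9 and 13 members of the 4 libraries (in the order without inhibitors 1 and 2, with inhibitors 1 and 2, which is kept throughout). Members held 74.2%, 76.6%, 67.9% and 37.7% of all Ttr UMIs among barcodes that passed the filter.

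**Figure D1:**
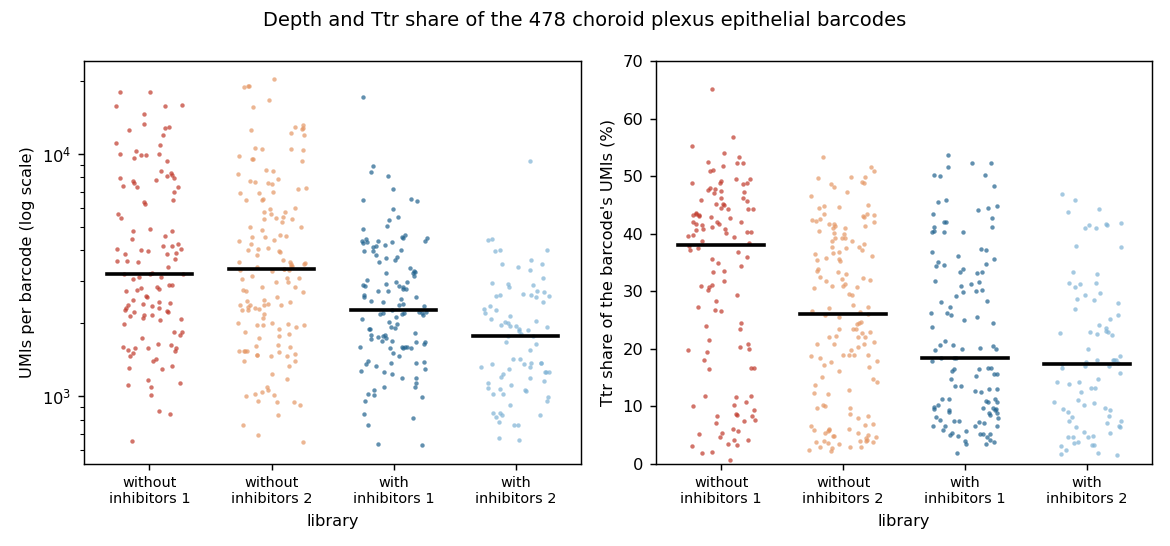
Each point is 1 member, by library on the horizontal axis. The left panel shows its UMIs on a log scale and the right panel its Ttr share in percent, with black bars at the medians. Medians of UMIs were 3204.5 and 3347 without inhibitors and 2269 and 1778 with them. Low and high Ttr shares occurred in every library.

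Of the 5 marker genes that define the label, Kl was detected in 56.7% to 73.6% of members of a library, Clic6 in 63.5% to 72.5%, Folr1 in 38.8% to 67.6% and Kcnj13 in 29.4% to 66.2%; these are genes of the rule and describe it only. Kl encodes Klotho, a co-receptor for fibroblast growth factor, Clic6 a chloride channel-like protein, Folr1 the folate receptor that carries folate into the cerebrospinal fluid, and Kcnj13 an apical potassium channel. In other barcodes each of these genes was detected in 0.65% to 2.15% of barcodes.

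The genes that set the members most apart from other barcodes were taken as the 15 with the largest ratio in the animal where that ratio was lowest, among 848 genes with at least 100 CPM (the usual library-scaled count, here the UMIs of a gene scaled to the summed UMIs of the barcodes) in the members of every animal. They were Defb11, Ttr, Cox8b, 2900040C04Rik, Prcd, Sostdc1, Prr32, Kcne2, Smim22, Tmem72, Clic6, Krt18, Folr1, Wdr86 and Kl. Defb11, a beta-defensin gene, led with 361, 294, 259 and 141 CPM in members against 6.80, 3.56, 3.52 and 3.59 CPM in other barcodes. Kcne2, a potassium channel subunit of the apical membrane, had 260, 307, 229 and 188 CPM in members and 8.61, 3.92, 3.52 and 3.78 CPM elsewhere. Krt18, a keratin of simple epithelia, had 238, 253, 160 and 141 CPM in members and at most 10.9 CPM in other barcodes. These values chose the genes and are given as a description, with no test.

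**Figure D2:**
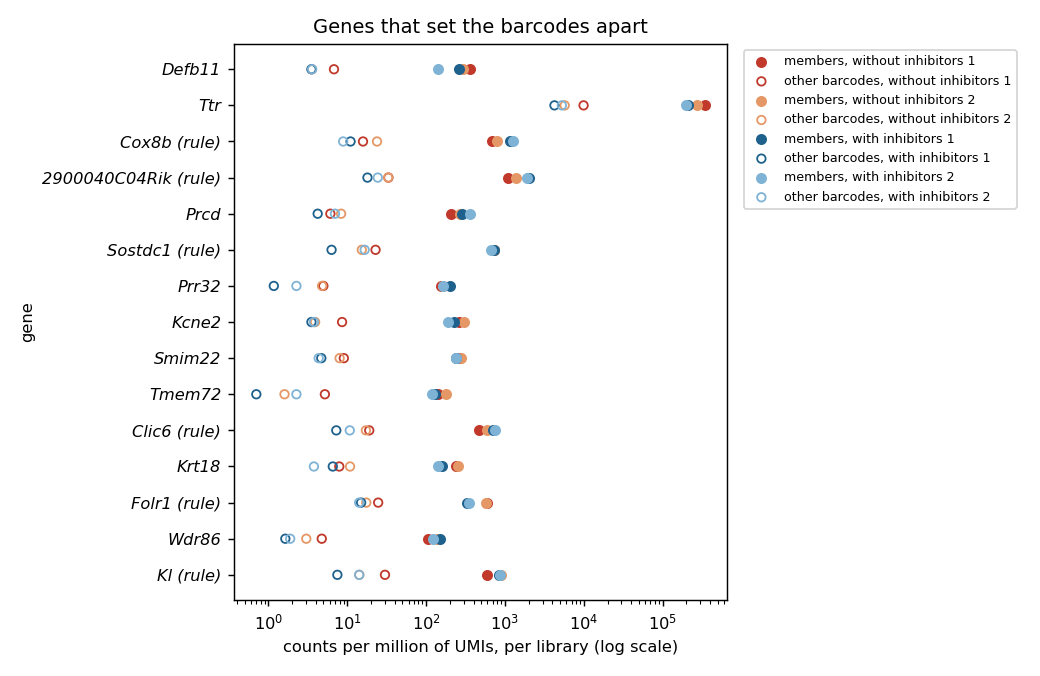
For each of the 15 genes, filled points are the CPM in members and open points the CPM in other barcodes, per library and on a log scale. Genes used by the rule are marked. Ttr lies far to the right of the others in both classes of barcode, and for each gene the filled points of all 4 libraries lie to the right of the open ones.

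RNA of most other cell types was lower in members than in other barcodes, but not absent. Ependymal and motile cilium RNA was higher in members than in other barcodes. Markers that the rule used to leave barcodes out were not counted here. Summed over the 8 other microglial markers, members had 403, 418, 243 and 423 CPM against 9981 to 11255 CPM in other barcodes. For 5 oligodendrocyte markers the sums were 957, 539, 599 and 787 CPM, against 5876 to 8701 CPM elsewhere. For 4 ependymal markers they were 371, 461, 516 and 511 CPM in members and 3137 to 3521 CPM in 155 barcodes picked by ependymal genes. In other barcodes the sums were 144, 166, 208 and 133 CPM. For 6 endothelial markers they were 305, 387, 215 and 229 CPM in members and 3498 to 5423 CPM elsewhere, and for 6 astrocyte markers 325, 263, 403 and 323 CPM and 2960 to 3667 CPM. The 18 motile cilium genes summed to 725, 912, 1016 and 1180 CPM in members and 8447 to 9042 CPM in the ependymal barcodes. Other barcodes had 559, 591, 727 and 494 CPM. Of the 4 ependymal genes of the rule, Dynlrb2 was detected in 29.4% to 51.2% of members of a library and Mia in 15.3% to 40%. Both were at 4.75% or less in other barcodes, while Ccdc153 and Tmem212 were detected in a smaller share of members than of other barcodes. Fibroblast RNA was near the floor, with Dcn, Col3a1 and Lum at 0 UMIs in the members of all 4 libraries. Summed over 5 erythrocyte markers, other barcodes had 14978, 21256, 3862 and 5969 CPM. Members had 6275 and 4491 CPM without inhibitors and 152 and 264 CPM with them. In the 2 libraries without inhibitors, 1 and 2 barcodes with more than 1% haemoglobin RNA carried 94.3% and 89.7% of the members' haemoglobin UMIs.

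The share of members differed between the 2 animals with inhibitors more than between the groups. Members made up 5.34% (95% Wilson interval 4.48 to 6.35) and 5.25% (4.49 to 6.14) of barcodes that passed the filter without inhibitors, and 5.88% (4.96 to 6.96) and 2.96% (2.40 to 3.64) with inhibitors; the intervals cover counting error only. Group means were 5.30% ± 0.0639 and 4.42% ± 2.07 (SD, n = 2 each), and the groups overlapped (exact two-sided permutation test, p = 1; with 2 animals against 2 the smallest p possible is 0.333). Without the second animal with inhibitors, the share was lower without inhibitors, by 0.587 percentage points.

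Members held more UMIs each in the animals without inhibitors. The median was 3276 ± 101 UMIs per member without and 2024 ± 347 with inhibitors (SD, n = 2 each; exact two-sided permutation p = 0.333, the smallest possible), and the groups did not overlap. Medians of other barcodes were 1633 and 1606 UMIs without and 1674 and 1450 UMIs with inhibitors, and these overlapped. Detected genes per member had medians of 1047.5, 1168, 920 and 681. The 117, 140, 118 and 72 members with at least 1000 UMIs were also thinned at random to that number (3, 8, 7 and 13 were shallower and left out). The order then turned, with medians of 425 and 487.5 genes without and 519 and 513 with inhibitors, while Ttr took a larger part of those UMIs without inhibitors. Mitochondrial RNA took a median of 4.99% and 5.05% of a member's UMIs without inhibitors and 5.63% and 7.46% with them (exact p = 0.333). In summed members Ttr was 34.5%, 27.1%, 21.2% and 19.7% of all UMIs. Depth, mitochondrial share and Ttr share thus moved with the group, and their part in the gene-level differences was not tested, except through the alternatives that restrict depth or Ttr share. At the edge of the rule, 30, 29, 18 and 29 members had just 3 of the 8 positive genes and median depths of 1715.5, 1491, 1266 and 1152 UMIs, and 21, 27, 23 and 20 further barcodes with exactly 2 positive genes fell just outside, with 1158, 1105, 1037 and 972 UMIs.

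Within each library, members were spread along 1 main axis. In the 447 members with at least 1000 UMIs, thinned to that number, the first principal component over 1101 genes held 7.57% of the variance and the second 1.23%. At its upper end stood secretory and mitochondrially encoded transcripts (Enpp2, mt-Co2, Psap, mt-Co1, Bsg, Igfbp2 and Clu among the 15 strongest), and at its lower end short nuclear transcripts of mitochondrial and cytosolic proteins (Cycs, Cox6b1, Chchd2, Chchd10, Atp5e and Cox7b). Enpp2 encodes autotaxin, Bsg basigin and Igfbp2 an insulin-like growth factor binding protein, and Cycs is cytochrome c. The 149 members with the lowest scores held on average 98.6 Ttr, 28.7 mitochondrially encoded, 117 ribosomal protein and 130 nuclear respiratory chain UMIs of 1000. In the 149 with the highest scores these means were 382, 107, 50.3 and 50.7 UMIs. In every library the axis rose with Ttr UMIs (Spearman's rho 0.58 to 0.89 over 72 to 140 members) and fell with nuclear respiratory chain UMIs (-0.91 to -0.95), a description of parts that share a fixed total. Its relation to UMIs before thinning was weak, from -0.18 to 0.19. In every library the axis also fell with the number of genes detected after thinning (-0.75 to -0.84). The score lay above 0 in 67.5% and 59.3% of members without inhibitors and in 43.2% and 40.3% with them. Members from all 4 animals lay at either end. Enpp2, Psap, Igfbp2 and Clu, from the upper end, were also called higher without inhibitors in the sums per animal below. The part of this axis in those differences was not tested.

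RNA of the axial position code was sparse. Hox genes, which mark hindbrain tissue, gave a UMI in 3, 3, 1 and 1 members, or 2.50%, 2.03%, 0.80% and 1.18%, against 1.35% to 1.88% of other barcodes, and are read as background. After thinning, Hox UMIs remained in 3, 0, 0 and 1 members (exact two-sided permutation p = 1). Any of 4 telencephalic genes gave a UMI in 6.08% to 14.1% of members of a library and in 6.70% to 8.65% of other barcodes. In the second library without inhibitors this share was lower in members (6.08% against 8.54%), and in the remaining libraries it was higher. The set as a whole is therefore not read as a mark of members. Six3, a gene of this set and a homeobox factor of the anterior neural tube, was detected in 6.67%, 4.73%, 9.60% and 12.9% of members. It was detected in 0.752% to 1.18% of other barcodes, whose median depths were lower than those of members. The Six3 share was 5.70% ± 1.37 without and 11.3% ± 2.36 with inhibitors (SD, n = 2 each; exact p = 0.333), although members without inhibitors were deeper, and the summed Six3 UMIs of members were 11, 9, 14 and 11. No member held both a telencephalic and a Hox transcript, but with 3, 3, 1 and 1 Hox-positive members this cannot show that they exclude each other.

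To ask which transcripts of these cells depended on the inhibitors, UMIs were summed over the members of each animal and compared between the groups with edgeR's quasi-likelihood test. Of 4416 genes tested, 177 were called (4.01%), 153 higher without inhibitors (3.46%) and 24 lower (0.543%). These counts hold 11 genes of the member rule, of which Kcnj13, Folr1, Prlr and Mia were called higher. Without them 149 of 4405 genes were called higher and 24 lower, and 2216 had a value above 0. A call needed a p, adjusted by Benjamini-Hochberg, under 0.05 and a log2 difference beyond 0.58 in either direction. Values of the groups did not overlap in 49.7% of all genes tested, and 838 had an unadjusted p under 0.05. Fold changes are given as without over with inhibitors on the log2 scale, with the standard error of the fit, and CPM in this comparison are scaled by TMM, a normalization that trims extreme genes. When that scaling was left out, the median over all genes moved from 0.0042 to -0.21, and the calls became 95 higher and 190 lower, or 33.3% higher against 86.4%. All 177 genes called kept their sign, and fits without Ttr gave 146 higher and 26 lower. Directions are therefore relative to the typical gene of these cells. The number of calls also rests on depth and on single animals: with barcodes thinned to 1000 UMIs before the rule, 54 of 952 genes were called higher and 14 lower, and leaving out 1 animal at a time gave 103 to 201 higher and 29 to 50 lower. Without the first or the second animal without inhibitors, the genes called lower were 50 and 41.

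**Figure D3:**
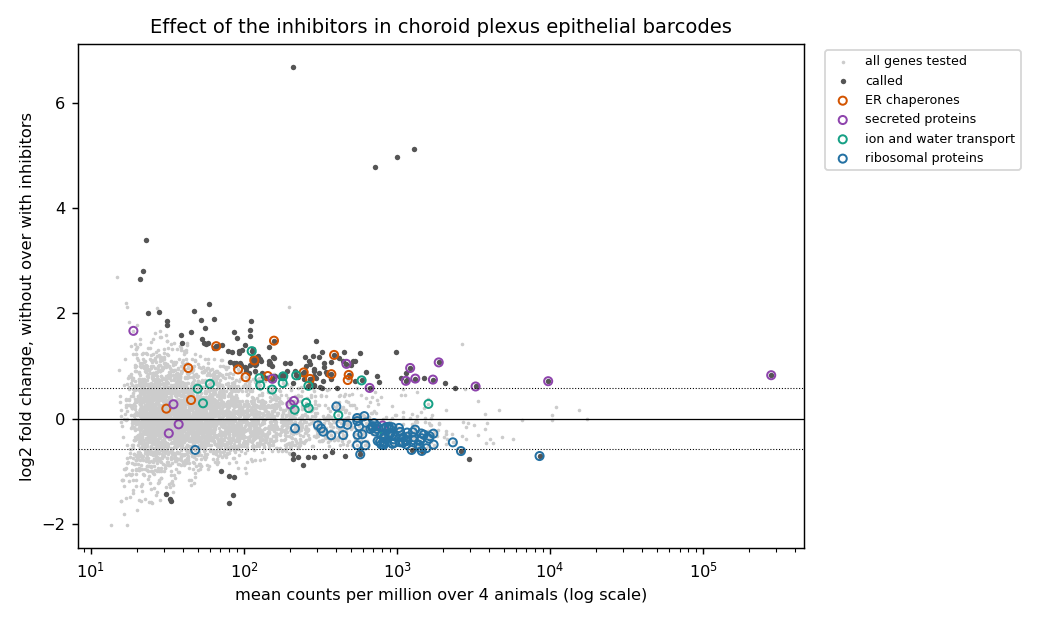
Each point is 1 of 4416 genes, with its mean CPM over 4 animals on a log scale and its log2 fold change (without over with inhibitors) on the vertical axis. Dark points passed the test, dotted lines mark the size limit of 0.58 in either direction, and rings mark 4 gene lists. The ER chaperones all lie above 0, most ribosomal proteins lie below 0, and the 4 haemoglobin genes stand at 4.78 to 6.68.

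Among 20 secreted products of the epithelium, 18 were tested, 11 rose, none fell, and 7 did not pass; the background share of rises was 3.46%. The list's median was 0.71, against 0.0042 for all genes. Over 20 settings 4 to 11 were called higher and none lower, with 4 when TMM was left out and 7 without the second animal with inhibitors. Ttr, which the rule did not use, stood at 418930, 291630, 206230 and 194820 CPM. Its level was higher in both animals without inhibitors (log2 fold change 0.83, SE 0.13, edgeR adjusted p = 0.0016). Ttr in other barcodes differed by 0.74 (adjusted p = 0.966), and the effect in members less that in other barcodes was 0.12 (SE 0.11, adjusted p = 0.910). Enpp2, whose product autotaxin makes lysophosphatidic acid in the fluid, had 10231, 13836, 6600 and 8152 CPM and rose by 0.71 (SE 0.15, adjusted p = 0.0363). Enpp2 in other barcodes differed by 0.51 (adjusted p = 0.966), and the effect in members less that in other barcodes was 0.23 (SE 0.52). 1500015O10Rik, also called Ecrg4, encodes a secreted peptide precursor made by the choroid plexus and lies at chromosome 1, 43730602 to 43742578 on the plus strand of GRCm38. With 2886 and 2203 CPM without and 1298 and 1096 CPM with inhibitors, it rose by 1.07 on the log2 scale (SE 0.12, adjusted p = 3.17e-05), and the groups did not overlap. Further rises were those of Cst3 (cystatin C, 0.61), Ptgds (prostaglandin D2 synthase, 0.74), Psap (prosaposin, 0.76), Clu (clusterin, 0.96), Igfbp2 (0.72), Spint2 (a serine protease inhibitor, 0.58), B2m (0.76) and Trf (transferrin, 1.04). Igf2, a growth factor of the plexus, had just 21, 13, 16 and 4 UMIs, and its log2 value was -0.28 (SE 0.46, adjusted p = 0.821).

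Transporters that make the fluid moved the same way where they moved. Of 21 ion and water transport genes 18 were tested, 5 rose and none fell, with a median of 0.60. Over all genes tested 3.46% were called higher. Aqp1, the apical water channel of the plexus (chromosome 6, 55336432 to 55348555, plus strand), had 141, 183, 78.0 and 46.4 CPM and rose by 1.28 (SE 0.27, adjusted p = 0.00763). Atp1b1, the beta subunit of the apical sodium pump, had 626, 818, 398 and 504 CPM and rose by 0.73 (SE 0.14, adjusted p = 0.00494). Car14, a carbonic anhydrase, rose by 0.80 (adjusted p = 0.0311) and Kcne2 by 0.62 (adjusted p = 0.0316). Kcne2 in other barcodes, at 8.64 CPM or less, differed by 0.77 (adjusted p = 0.966). Its effect in members less that in other barcodes was -0.07 (SE 0.36). The anion exchangers and cotransporters Slc4a2, Slc4a5, Slc4a10 and Slc12a2 did not pass, with 0.68, 0.63, 0.30 and 0.20. Car2, a cytosolic carbonic anhydrase, was at -0.30 (adjusted p = 0.0843), the lowest value of the list. Over 20 settings of rule, depth, scaling and animals 0 to 7 were called higher and none lower.

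Of 20 further solute carriers and pumps 11 were tested, 5 rose, beside 3.46% of all genes, and none fell (median 0.54). Over the 20 settings 1 to 5 were called higher, with 1 called and a median of 0.26 without the first animal with inhibitors. Slc22a17, a receptor for the iron-binding protein lipocalin, had 740, 712, 350 and 325 CPM, about 2.13-fold higher without inhibitors (log2 1.09, SE 0.12, adjusted p = 3.17e-05). Slc31a1, the copper importer, rose by 0.86 (SE 0.19, adjusted p = 0.0103), Slco1c1, a carrier of thyroxine, by 1.09 (SE 0.24, adjusted p = 0.0116), Slc13a4, a sulfate carrier, by 1.28 and Slc16a8, a lactate carrier, by 1.65. Of the iron genes, Trf and Steap2, a metalloreductase, rose among 6 tested. Among 7 receptors tested none was called: Htr2c, the serotonin receptor for which the plexus is known, had 254, 301, 180 and 220 CPM (log2 0.52, SE 0.18, adjusted p = 0.118). Krt18 was the only gene called of 7 tested in the junction and keratin list (288, 272, 156 and 139 CPM, log2 0.90, SE 0.18, adjusted p = 0.00619), and the tight junction gene Cldn2 stood at 0.52 (adjusted p = 0.377). In other barcodes Krt18 differed by 0.93 (adjusted p = 0.966), and the effect in members less that in other barcodes was 0.04 (SE 0.45).

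ER chaperones, fold proteins that enter the secretory pathway. Of 16 genes 15 were tested, all 15 had a positive value, 8 rose and none fell, with a median of 0.84. Over all genes tested 3.46% were called higher, and outside the member rule 2216 of 4405 had a positive value. Calr, encoding calreticulin (chromosome 8, 84841850 to 84846934, minus strand), had 491, 592, 237 and 232 CPM. It rose by 1.21 (SE 0.15, adjusted p = 8.87e-05). Pdia6, a disulfide isomerase, rose by 1.48 (SE 0.23, adjusted p = 6.38e-04) from 91.4 and 69.6 CPM with inhibitors to 215 and 252 CPM without. Hsp90b1 (0.83, SE 0.18, adjusted p = 0.0130), Manf (0.84, SE 0.16, adjusted p = 0.00296), Canx, Pdia3, Pdia4 and Dnajb11 rose as well. Hspa5, which encodes the ER chaperone BiP, did not pass: its values of 444, 737, 352 and 371 CPM were higher without inhibitors, with a wide gap between the 2 animals of that group (log2 0.73, SE 0.24, adjusted p = 0.134). The size of this shift depended on the animals included. Without the first animal without inhibitors, 13 of the 15 genes were called higher and the median was 1.04, and without the second, 6 were called and the median was 0.57. Over the 20 settings between 2 and 13 were called higher and none lower.

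Many ER chaperone genes are known to carry the ER stress response element in their promoter, through which cells raise chaperones when proteins misfold. The element, CCAAT and CCACG with 9 free bases between them, was chosen after the values were seen and was looked for on both strands in RefSeq promoters (GRCm38.p6, 250 bases before to 50 after each start). It was present in 7 of the 14 listed chaperone genes with a promoter in that table and in 39 of all 32851 promoters (0.119%). Among 3552 tested genes with a promoter there, 8 held it, 7 of them the chaperones just counted, and 4 of these had been called higher. The called chaperones Pdia3, Pdia4 and Dnajb11 have a promoter in the table and no element there. Promoters of 5 of the 7 are printed, those of the 4 called genes with the element and that of Hspa5. Capitals mark the element, on either strand.

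Hspa5, chr2:34771840-34772139, plus strand: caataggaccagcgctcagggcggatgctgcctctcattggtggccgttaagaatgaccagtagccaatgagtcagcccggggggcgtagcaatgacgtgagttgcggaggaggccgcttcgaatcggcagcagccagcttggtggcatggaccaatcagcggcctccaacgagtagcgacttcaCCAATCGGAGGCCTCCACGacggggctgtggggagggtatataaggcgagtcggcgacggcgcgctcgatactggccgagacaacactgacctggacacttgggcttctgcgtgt
Hsp90b1, chr10:86705395-86705694, minus strand: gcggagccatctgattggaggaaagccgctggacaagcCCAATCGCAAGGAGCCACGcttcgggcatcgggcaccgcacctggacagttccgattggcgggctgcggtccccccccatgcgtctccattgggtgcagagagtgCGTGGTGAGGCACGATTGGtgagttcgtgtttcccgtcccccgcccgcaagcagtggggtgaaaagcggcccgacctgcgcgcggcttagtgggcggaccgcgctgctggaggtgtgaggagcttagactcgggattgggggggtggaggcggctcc
Calr, chr8:84846882-84847181, minus strand: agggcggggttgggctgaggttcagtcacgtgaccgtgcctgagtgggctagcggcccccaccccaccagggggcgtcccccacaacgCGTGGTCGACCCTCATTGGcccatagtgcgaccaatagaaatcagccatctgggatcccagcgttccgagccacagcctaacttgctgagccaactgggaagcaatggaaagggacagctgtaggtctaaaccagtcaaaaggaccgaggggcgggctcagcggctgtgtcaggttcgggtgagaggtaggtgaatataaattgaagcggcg
Canx, chr11:50325624-50325923, minus strand: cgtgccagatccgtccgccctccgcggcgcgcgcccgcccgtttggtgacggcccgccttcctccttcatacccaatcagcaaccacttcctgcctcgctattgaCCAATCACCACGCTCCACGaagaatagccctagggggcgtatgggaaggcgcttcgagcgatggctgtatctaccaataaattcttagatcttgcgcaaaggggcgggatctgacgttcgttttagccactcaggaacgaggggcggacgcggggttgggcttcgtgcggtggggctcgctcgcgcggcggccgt
Pdia6, chr12:17266339-17266638, plus strand: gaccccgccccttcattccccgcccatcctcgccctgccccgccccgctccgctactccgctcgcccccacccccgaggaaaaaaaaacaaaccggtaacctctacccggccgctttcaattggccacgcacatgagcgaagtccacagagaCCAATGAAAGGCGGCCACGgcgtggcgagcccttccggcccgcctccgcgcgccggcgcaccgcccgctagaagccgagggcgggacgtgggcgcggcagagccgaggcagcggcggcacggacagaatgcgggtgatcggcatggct

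Hsp90b1 holds 2 elements, and in Hspa5 the element begins 65 bases before the annotated start. A match describes the sequence only, and use of these promoters was not measured.

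Further groups of genes, only some of them steps of the same pathway, were made after the values had been seen and are given as counts. Some share genes with each other or with the lists above, such as Cd63 and Psap. Over all genes tested 3.46% were called higher. Of 26 tested genes for translocation into the ER and its glycosylation and signal peptidase machinery, 9 were called higher and none lower (median 0.83), and 2 to 10 were called higher over the 20 settings. Without the first and the second animal with inhibitors, 4 and 5 were. Among them Dad1, an oligosaccharyltransferase subunit, had 630, 540, 280 and 232 CPM (log2 1.15, SE 0.15, adjusted p = 1.06e-04), and Sec62, part of the translocon, had 354, 368, 164 and 197 CPM (log2 1.04, SE 0.17, adjusted p = 0.00108). Rpn2, another oligosaccharyltransferase subunit, had the largest value outside haemoglobin among genes called with a mean over 50 CPM. It had 77.7 and 107 CPM without and 10.8 and 40.6 CPM with inhibitors, from 38, 70, 4 and 7 UMIs (log2 2.18, SE 0.44, adjusted p = 0.00536). Without the first animal with inhibitors it was not called (1.21, adjusted p = 0.230), and without the second its value was 3.07. Of 23 genes of transport between ER and Golgi 4 were called higher (median 0.56; 1 to 6 over the settings), led by the cargo receptor Tmed10 (335, 367, 167 and 139 CPM, log2 1.16, adjusted p = 5.77e-04) and Sar1b, a coat GTPase (1.39). Of 28 lysosomal genes 11 were called higher (median 0.80), among them Ctsd (cathepsin D, 0.80), Lamp2 (1.18) and Cd63 (1381, 1403, 640 and 487 CPM, log2 1.26, SE 0.11, adjusted p = 1.02e-05). Tetraspanins, membrane proteins to which Cd63 also belongs, had 6 of 11 called (median 0.88), including Cd81 (0.88), Tspan3 (0.98) and Tspan31 (1.72). Genes named Tmem (transmembrane protein) had 10 of 66 called higher and none lower, among them Tmem59 (650, 611, 253 and 278 CPM, log2 1.26) and Tmem176b (184, 164, 48.4 and 46.4 CPM, log2 1.85, adjusted p = 3.24e-04). Mitochondrial carriers (Slc25) had none of 17 called, with a median of 0.19 and Slc25a5 at 0.23 (adjusted p = 0.183).

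**Figure D4:**
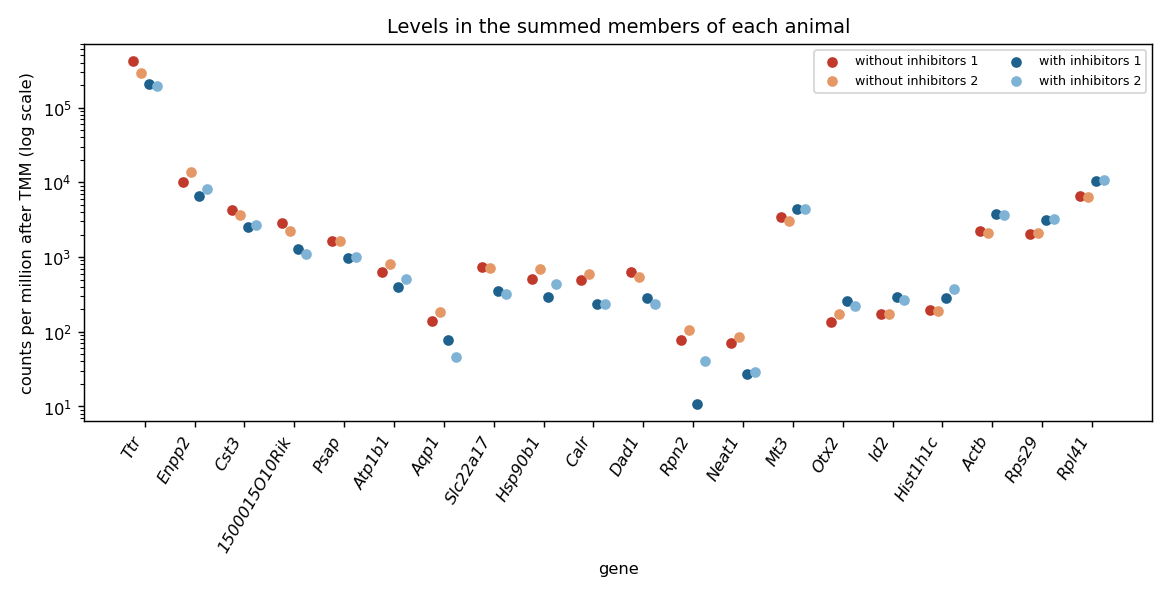
CPM after TMM in the summed members of each of 4 animals, on a log scale, for secreted, transport, ER, nuclear, cytosolic and ribosomal genes. Each point is 1 animal. From Ttr to Neat1 the animals without inhibitors lie above those with inhibitors, and from Mt3 to Rpl41 they lie below.

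Few ribosomal protein transcripts were called in the main fit. Of 81 tested, 5 fell, none rose, and 78 had a negative value, with a median of -0.33. Beside it 0.543% of all genes were called lower. The number called rested on the scaling: with TMM left out 35 were called lower, among 190 genes in all. Over the 20 settings the list's median less that of all genes lay between -0.47 and -0.28. Rpl41 had 6643 and 6294 CPM without and 10273 and 10889 CPM with inhibitors (log2 -0.71, SE 0.07, adjusted p = 2.12e-05). Rps29 had 2033, 2094, 3116 and 3212 CPM (log2 -0.61, SE 0.08, adjusted p = 1.10e-04), and Rps19 and Rpl4 fell by 0.61 and 0.68 on the log2 scale. Sequences of these genes recur in many pseudogenes, and whether reads were lost to or shared with such copies was not tested. Actb, cytoplasmic actin, fell by 0.77 (2248, 2097, 3740 and 3653 CPM, SE 0.08, adjusted p = 2.12e-05). Other falls among genes over 50 CPM were those of Fn3krp, a protein-repair kinase (34.8, 44.3, 126 and 116 CPM, log2 -1.61), Fam84b (-1.44), Zmat5 (-1.10), Avpi1 (-1.08), Rps27rt (-0.87), Rbm47, an RNA-editing cofactor (-0.76), Polr2m (-0.73) and Id2, an inhibitor of basic helix-loop-helix factors (174, 171, 296 and 267 CPM, log2 -0.72, adjusted p = 0.0182). Mt3, a metallothionein, passed the p threshold but not the size limit (log2 -0.46, adjusted p = 0.00209). None of 45 translation factors was called (median 0.10), nor any of 35 proteasome genes (median 0.26).

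Mitochondrial transcripts moved in no single direction. None of 12 mitochondrially encoded genes was called, and mt-Co3 had 17293, 17245, 15257 and 19476 CPM (log2 -0.01). Of 76 nuclear respiratory chain genes, 6 rose and 1 fell (over all genes, 3.46% and 0.543%), with a median of -0.06. The rises were those of Atp5b (1229, 1423, 753 and 806 CPM, log2 0.78, adjusted p = 1.38e-04), Ndufb11 (0.69), Ndufc2 (755, 642, 331 and 319 CPM, log2 1.09, adjusted p = 6.13e-05), Ndufs3, Uqcrc2 and Ndufa9, and the fall was that of Cox7a2l. Of 13 heat shock genes tested, Hspa8, the constitutive cytosolic chaperone, rose by 0.87 (1401, 1558, 817 and 806 CPM, adjusted p = 3.21e-05), and Hspd1, a mitochondrial chaperonin, rose as well (70, 116, 34 and 10 UMIs, adjusted p = 0.0232). Among 14 subunits of the proton pump Atp6v0b (0.71) and Atp6ap2 (0.76) rose. In nuclear long non-coding RNAs, 4 were tested and all lay above 0: Neat1 rose (71.6, 85.6, 26.9 and 29.0 CPM, log2 1.51, SE 0.35, adjusted p = 0.0142), as did Kcnq1ot1 (17, 36, 4 and 2 UMIs, log2 2.03, SE 0.52, adjusted p = 0.0246), while Malat1 varied widely between the animals with inhibitors (4882, 3074, 2304 and 435 CPM, adjusted p = 0.604). Brix1, of ribosome assembly, rose on few UMIs (20, 21, 2 and 1). Regulators of plexus identity were not called: Otx2, which is needed to form and keep the choroid plexus, had 135, 173, 261 and 220 CPM (log2 -0.66, SE 0.20, adjusted p = 0.0579), and Msx1 had 393, 376, 489 and 406 CPM (-0.25). Genes of motile cilia (9 tested, led by Cfap126 at 180, 183, 269 and 267 CPM, log2 -0.56, adjusted p = 0.0700), circadian genes (6 tested, Dbp at -0.17), stress response genes (5 tested, Slc3a2 at 0.89, adjusted p = 0.110) and Snhg host genes (5 tested, Snhg6 at -0.39) had no call.

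The immediate early response, which the inhibitors are meant to hold down, was barely measurable in these cells. Fos, an immediate early transcription factor, had 2, 0, 0 and 0 UMIs in the members, of 593308, 703178, 362284 and 170334 UMIs in all. In other barcodes it had 305 and 175 CPM without and 5.72 and 5.15 CPM with inhibitors (adjusted p = 0.0442). Jun had 5, 9, 3 and 0 UMIs in members, Junb 4, 5, 1 and 2, Egr1 2, 0, 1 and 0, Zfp36 6, 5, 0 and 0, Dusp1 6, 9, 10 and 2 and Hspa1a 1, 4, 0 and 1. None of these 7 genes passed the low-count filter, so a change in them was not detectable in members at this depth, and a rise of the size seen elsewhere cannot be called absent from the test alone. Levels can still be set side by side without a test: Fos at 3.37 CPM in the members of the first library without inhibitors was far under the 305 CPM of its other barcodes, and Jun at 8.43 CPM under 593 CPM. Of the 25 activation genes that the study derived from sorted microglia of other animals, 6 were tested in members; none rose and Hist1h1c, a linker histone gene, fell (196, 190, 282 and 377 CPM, log2 -0.72, SE 0.18, adjusted p = 0.0211). The list's median was -0.48 over these 6 genes, but 0.19 over 21 genes with no low-count filter and 0.16 with DESeq2. Of 5 immediate early genes tested none was called, and all lay below 0 (median -0.39, but 0.16 over 27 genes with no filter and 0.093 with DESeq2), with Gadd45g at -0.76 (44, 70, 59 and 32 UMIs, adjusted p = 0.0522). Of 19 genes that the study picked from these same libraries, which are not independent evidence and of which 10 are also on the activation list, 2 outside the member rule could be tested, and 1500015O10Rik was the 1 called.

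Haemoglobin transcripts gave the largest differences of all (Hbb-bt 6.68, Hbb-bs 5.12, Hba-a1 4.97 and Hba-a2 4.78). Hbb-bs had 1436, 1327, 18 and 20 UMIs in members, nearly all from the 3 barcodes named above. In other barcodes Hbb-bs had 6407, 10009, 1627 and 2440 CPM (adjusted p = 0.644). Without those 3 barcodes Hbb-bs was still called (1.92, adjusted p = 1.58e-04), Hba-a1 (0.63, adjusted p = 0.281) and Hba-a2 (0.60, adjusted p = 0.310) were not, and the calls over all genes were 153 higher and 25 lower. Of the marker lists for other cell types, 1 further gene was called: Pltp, a phospholipid transfer protein on the endothelial list, at 217, 228, 116 and 69.6 CPM (log2 1.16, adjusted p = 0.0048). The 6 microglial markers tested all lay above 0 (median 0.66, none called), as did 4 endothelial markers (median 0.77), beside the medians of 0.71 for secreted and 0.80 for lysosomal genes. C1qa had 44, 68, 20 and 21 UMIs, and Mbp, an oligodendrocyte transcript, 515, 272, 401 and 557 CPM. The part of such RNA in the other differences was not tested.

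Whether the effect in members differed from that elsewhere was tested as the difference between the effect in members and that in all other barcodes of the same animals. Of 12909 genes tested, 73 had a larger and 20 a smaller effect in members (0.72% in all), and 982 had an unadjusted p under 0.05. The member rule had used 18 of these genes, among them Mia on the larger and Cox8b, 2900040C04Rik and Clic6 on the smaller side, and without rule genes the counts were 72 and 17. The fit had the animal as a block, and without it 22 were larger and 9 smaller. The other barcodes on their own had 7 genes called of 13763 (0.0509%), all higher without inhibitors, and 689 with an unadjusted p under 0.05. Calr differed by 1.24 (SE 0.20, adjusted p = 1.64e-06) and was at -0.02 in the other barcodes (275, 349, 322 and 311 CPM). Dad1 differed by 1.09 (adjusted p = 3.40e-05), Tmem59 by 1.14, Hspa8 by 0.82 (adjusted p = 3.40e-05), Cd63 by 0.93, Tecr, an enzyme of fatty acid elongation, by 1.17 and 1500015O10Rik by 0.78 (adjusted p = 1.92e-04). Rpn2 (2.13), Prdx4, an ER peroxidase (1.87), Tmem50a (1.80) and Tmem176b (1.69) had some of the largest coefficients among genes over 50 CPM. On the other side stood Hist1h1c (-1.52, SE 0.23, adjusted p = 2.03e-07), which had 179, 168, 91.0 and 111 CPM in other barcodes. Sfxn5 (-1.51), Slc1a3 (-1.42), Avpi1 (-1.35) and Zmat5 (-1.29) followed, and Slc1a3 is an astrocyte gene whose value in members came from 21, 13, 39 and 2 UMIs and turned to 1.25 without the first animal with inhibitors. By list, 5 of 16 ER chaperones, 5 of 20 secreted products and 6 of 30 translocation genes had a larger effect in members and none a smaller. For 24 activation genes with an estimate, 2 were smaller in members, and for 81 ribosomal proteins 1 was smaller. Counts depended on 1 animal: without the first animal without inhibitors 8 genes were called larger and 0 smaller, without the first with inhibitors 25 and 5, without the second with inhibitors 39 and 24, and without the second without inhibitors 64 and 13. All 93 genes kept their sign, except 1 when the first animal with inhibitors was left out. With the TMM scaling left out, 34 were larger and 96 smaller.

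**Figure D5:**
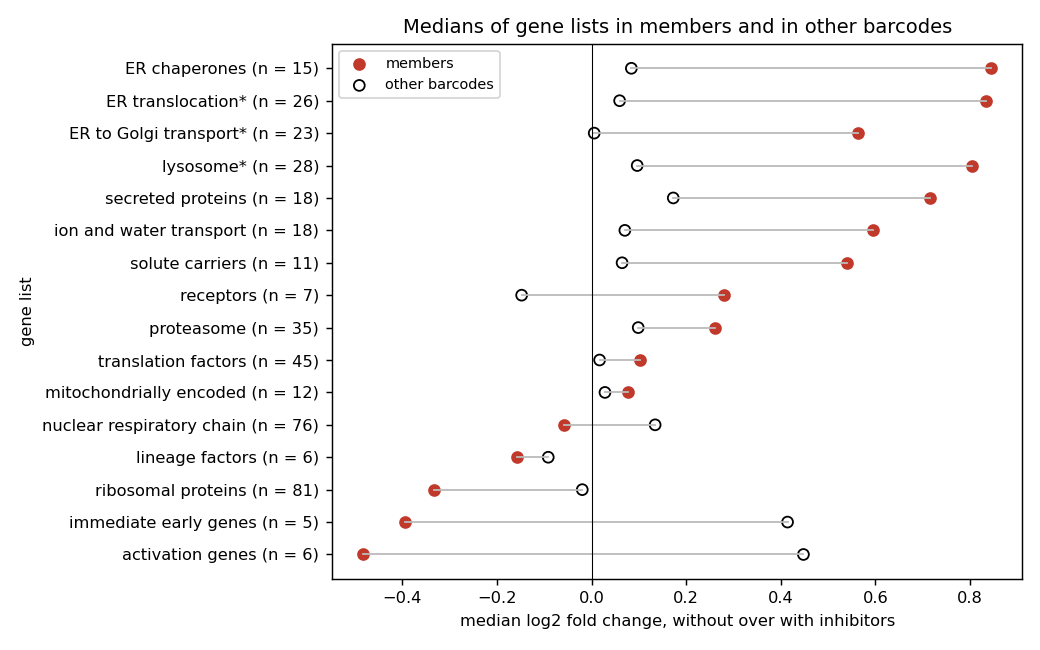
Median log2 fold change (without over with inhibitors) over the genes of each list that were tested in members, in members (filled) and in other barcodes (open). Lists marked with a star were grouped after the values were seen. The medians of the ER, lysosomal, secreted and transport lists lie at 0.54 to 0.84 in members and at 0.0056 to 0.17 in other barcodes, and immediate early and activation genes lie on opposite sides of 0.

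A second test set the members against the ependymal barcodes, from the cells that line the ventricles. Of 3784 genes tested, 33 had a larger and 4 a smaller effect in members (0.978% in all; 32 and 4 without genes of the rule), from 29, 42, 46 and 38 ependymal barcodes, while on their own the ependymal barcodes had 0 of 2816 genes called and 126 with an unadjusted p under 0.05. Calr (1.55, SE 0.30, adjusted p = 1.56e-04), 1500015O10Rik (1.35, SE 0.23, adjusted p = 7.56e-06), Tecr (1.87, SE 0.37, adjusted p = 2.55e-04), Dad1 (1.24, adjusted p = 0.00682), Aldh2, a mitochondrial aldehyde dehydrogenase (1.71, adjusted p = 0.0125), Prdx4 (2.29) and Rpn2 (1.93, adjusted p = 0.046) were larger in members. Ttr differed by 0.69 (SE 0.16, adjusted p = 0.00535). Smaller effects were those of Fam84b (-2.04), Id2 (-1.58), Hist1h1c (-1.34) and Rpl4 (-1.01). These calls too rested on single animals: without the second animal with inhibitors none was called, without the first with inhibitors 8 were larger and 0 smaller, and without the first without inhibitors 24 were larger and 12 smaller.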

How the data were processed

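Single-cell RNA-seq libraries of 4 mouse brains (2 without and 2 with inhibitors, 1 library per animal, so replicates are separate animals) were analysed from the deposited UMI count matrices, which the authors made with bcl2fastq and Cell Ranger 3.0.0 on the mm10 (GRCm38) reference, 10x 3′ chemistry, with barcodes called as cells by that tool and no normalization. No columns of the authors' own comparisons were used.

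Members were picked by the rule given in the report. The members, gene lists and tests were chosen with earlier results of these data known. Doublets were scored from simulated doublets (2 per barcode, 20 neighbours), and 3, 0, 1 and 0 members were scored. They were kept, and left out in an alternative. UMIs were summed over members per animal, and tested with edgeR 4.0.16 (quasi-likelihood, robust, TMM scaling, its low-count filter, R 4.3.3), with group as the sole term, and Benjamini-Hochberg adjustment over all genes tested. Every adjusted p in the text comes from these edgeR fits. Differences from other and from ependymal barcodes were tested as an interaction, with the animal as a block, because both classes came from the same animals. DESeq2 1.42.0 was an alternative. The code was tested on simulated counts. Values per animal were compared with an exact two-sided permutation test (scipy 1.17.1). Intervals cover counting error only. Python 3.11.15, numpy 2.4.6, pandas 2.3.3 and scikit-learn 1.9.0 were used.

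Genes were named by rule: of those called, not in the member rule, with a mean of at least 50 CPM and no overlap between groups, the 10 largest rises and 10 largest falls, up to 3 genes of each list by level, and up to 5 per direction in each interaction. Further genes were named from list members or after their values were seen. Groups for ER translocation, ER to Golgi transport, lysosome, tetraspanins, Tmem and Slc genes were made after the values were seen. Gene coordinates are from GENCODE on GRCm38. A few genes that the naming rule gave are not reported here.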

Additional observations from a re-analysis of the deposited data

Results flagged for a closer look

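The effect of the inhibitors differed between members and other barcodes of the same animals, by an interaction test in edgeR, for 73 genes with a larger and 20 with a smaller effect in members (log2, without over with inhibitors, members less other barcodes). Leaving out genes that the member rule used, these counts were 72 and 17. By the naming rule, the larger effects included Rpn2 (2.13), Prdx4 (1.87), Tmem50a (1.80) and Tmem176b (1.69). The smaller were those of Hist1h1c (-1.52), Sfxn5 (-1.51), Slc1a3 (-1.42), Avpi1 (-1.35) and Zmat5 (-1.29). Slc1a3 is a marker of astrocytes, and in members alone it was not called.

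Against ependymal barcodes 33 genes had a larger and 4 a smaller effect in members. The larger effects included Prdx4 (2.29), Rpn2 (1.93), Tecr (1.87) and Aldh2 (1.71), and the smaller were those of Fam84b (-2.04), Id2 (-1.58), Hist1h1c (-1.34) and Rpl4 (-1.01).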

How the results depend on the processing

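In members, 153 genes were called higher and 24 lower without inhibitors. DESeq2 called 99 higher, TMM left out gave 95 higher and 190 lower, members with Ttr from 10% to 30% (chosen after seeing the data) gave 92 higher among 1651 genes, and thinning to 1000 UMIs gave 54 higher and 14 lower among 952. Leaving out 1 animal at a time gave 103 to 201 higher and 29 to 50 lower. The labels do not say whether replicate numbers pair the samples. The differences between replicates 1 and 2 were hardly correlated between the groups (r = 0.045), which does not settle it. The replicate block gave 228 higher and 52 lower. Against other barcodes (73 and 20), TMM left out gave 34 and 96, at least 4 positive genes 32 and 7, and the fit with no replicate block (there, the animal from which both classes of barcode came) 22 and 9. Leaving out 1 animal gave 8 to 64 and 0 to 24. Against ependymal barcodes (33 and 4), TMM left out gave 10 and 15, no low-count filter 19 and 0, and leaving out 1 animal 0 to 35 and 0 to 12. With no replicate block that comparison also gave 33 and 4. The difference in the share of members ranged from -0.587 to 2.34 percentage points and that in Hox RNA from -0.694 to 1.87 when 1 animal was left out. Slc1a3 against other barcodes ranged from -1.98 to 1.25 on the log2 scale. The genes called in members kept their sign in the other settings, save 1 of 149 in members with Ttr from 10% to 30%. Causes were not tested. Depth limits members most in the second animal with inhibitors, with 170334 UMIs.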
